A study of Mus musculus with 2 samples.

Results

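The megakaryocyte and platelet genes examined here are 9 genes chosen by name: the chemokine genes Pf4 and Ppbp, the integrin chain genes Itga2b and Itgb3, the receptor chain genes Gp1ba, Gp1bb and Gp9, the adhesion protein gene Vwf and the hormone gene Thpo. All 9 were found by gene symbol among the 43346 genes of the deposited tables. Expression was read in 2 libraries from newborn B6NCrl mouse livers at age 0 days, 1 from pup 1 and 1 from pup 3, and the labels name no treatment. Each library was made from 13 pg of total RNA over 200 nt, the amount of 1 cell-equivalent. The labels give liver tissue as the source and not a sorted cell, so the values describe a small sample of whole-tissue RNA. The labels call these single livers of separate pups but list the same donor for both, so animal and technical spread cannot be told apart. With a single group there is nothing to contrast it with, and values are levels in each pup with their mean ± SD (n = 2), untested.

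Megakaryocytes are the large polyploid cells that shed platelets, and the newborn mouse liver is still a blood-forming organ that holds them. Their surface carries the GPIb-IX complex, which binds von Willebrand factor, and the integrin αIIbβ3, which binds fibrinogen. Their alpha granules store the chemokines encoded by Pf4 and Ppbp together with von Willebrand factor. Thrombopoietin, encoded by Thpo, is the hormone that drives the lineage, and the hepatocyte is its best known source. The transcription factors GATA1, FLI1 and NFE2 are known regulators of many of these genes.

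The 2 tables summed to 56959836 expected counts in pup 1 and 35973980 in pup 3, of which spike-in RNAs took 3.76% in pup 1 and 3.28% in pup 3. A count of 0 then allows up to 0.0547 CPM (counts per 1000000 endogenous counts) in pup 1 and 0.0862 in pup 3, taking 3 counts as the limit. Intervals and limits cover counting error only, since the labels mention no molecular identifiers and PCR copies of a molecule are counted more than once without them. Hepatocyte markers stood at 1 TPM or more in both libraries for 8 of 8 genes, as did 8 of 10 erythroid and 8 of 8 neutrophil markers. TPM, the share of transcripts scaled to 1000000 after removal of spike-ins, corrects for length and is the scale used for levels below. Detection below means a level of at least 1 TPM.

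The upstream sequences of Pf4, Itga2b and Gp9 are shown because these genes stand for the chemokines, the integrin and the receptor complex whose levels follow. RefSeq start sites in GRCm38.p6 matched 7 of the 9 members, with 8 promoters in all because Thpo has 2. Each line gives the 250 bases before the start, 5′ to 3′ on the gene's strand, and capitals mark GATAA or GGAAG or their reverse complements TTATC and CTTCC, core letters of the GATA and ETS factor families. The Pf4 stretch is chr5:90772185-90772434 on the plus strand, that of Itga2b chr11:102469884-102470133 on the minus strand (its RefSeq start lies 239 bp inside the GENCODE gene span) and that of Gp9 chr6:87777820-87778069 on the plus strand.
Pf4: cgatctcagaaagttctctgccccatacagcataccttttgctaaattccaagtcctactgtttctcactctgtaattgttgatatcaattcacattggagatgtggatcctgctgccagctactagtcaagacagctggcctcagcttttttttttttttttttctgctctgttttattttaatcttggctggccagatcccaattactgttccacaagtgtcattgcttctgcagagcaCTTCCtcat
Itga2b: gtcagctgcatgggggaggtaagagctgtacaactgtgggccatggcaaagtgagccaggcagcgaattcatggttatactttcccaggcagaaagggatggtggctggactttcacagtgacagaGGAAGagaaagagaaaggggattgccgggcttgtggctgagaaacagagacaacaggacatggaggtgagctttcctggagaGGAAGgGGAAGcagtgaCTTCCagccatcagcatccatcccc
Gp9: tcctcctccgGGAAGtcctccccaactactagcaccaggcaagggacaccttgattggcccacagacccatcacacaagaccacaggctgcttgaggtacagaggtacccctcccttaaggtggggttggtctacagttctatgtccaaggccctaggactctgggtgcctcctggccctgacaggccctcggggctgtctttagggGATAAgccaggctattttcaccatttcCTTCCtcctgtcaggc
In the full 300-base windows, which run 50 bases past the start, GATAA was found on either strand in 3 of the 8 promoters (Pf4, Gp9 and Gp1ba), where 25.4% of all 32851 listed promoters hold it. The Pf4 match lay after the start and is not shown. GGAAG was found in 7 of the 8, against 71.4% of all promoters, and both were found in 3 of the 8, against 17.2%. The motifs overlapped each other at 0 places. In Gp9 the GATAA match began 43 bases before the start and a GGAAG match 16 bases before it, and the Itga2b stretch held 4 GGAAG matches and 0 GATAA matches. A match is a run of letters and says nothing about binding.

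Of the 9 members, 3 were detected in both libraries (Pf4, Ppbp and Gp9), 1 in pup 1 alone (Itgb3), 2 in pup 3 alone (Itga2b and Vwf) and 3 in neither (Gp1ba, Gp1bb and Thpo). Among all 21474 protein-coding genes 14.9% were detected in both, and 17.3% in a single library. By library, 4 members were detected in pup 1, where 24.1% of protein-coding genes were, and 5 in pup 3, where 23.0% were. These shares over so few members are counts and not a test. The members summed to 696 TPM in the liver of pup 1 and 1184 TPM in that of pup 3, a mean of 940.2 ± 345 TPM. The chemokines made up most of this, with 88.4% of the sum in pup 1 and 89.5% in pup 3. Without them the other 7 members summed to 81.0 TPM in pup 1, against 124 TPM in pup 3. In tissue RNA, fewer megakaryocytes and less RNA per megakaryocyte cannot be told apart.

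**Figure D1:**
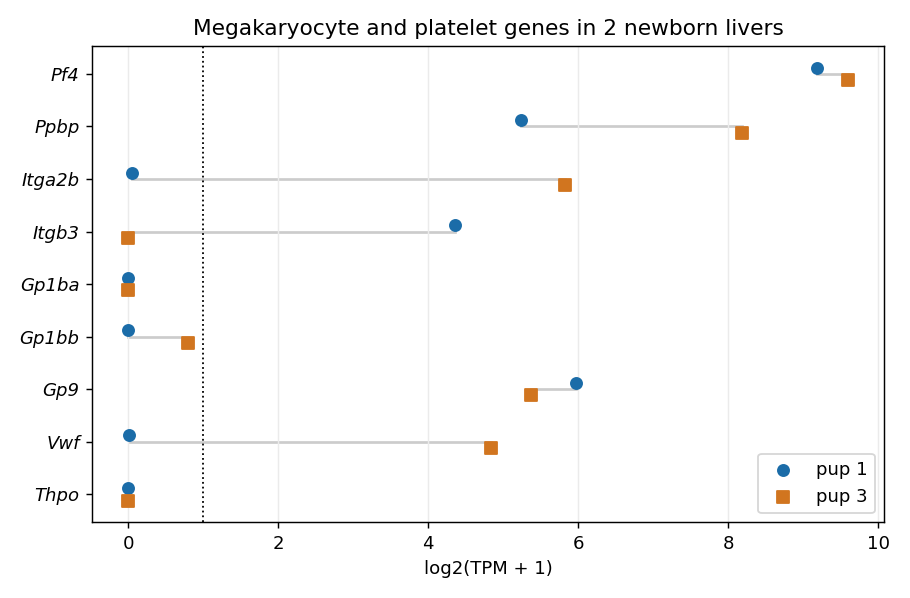
Level of each of the 9 members, as log2(TPM + 1), in the pup 1 library (circles) and the pup 3 library (squares), with the dotted line at 1 TPM; grey bars join the 2 values of a gene. Pf4 leads in both libraries, Ppbp, Pf4 and Gp9 lie right of the line in both, and Itga2b, Itgb3 and Vwf lie right of it in 1 library each.

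Pf4, which encodes platelet factor 4, a heparin-binding chemokine of alpha granules, was the most abundant member in both livers. The gene (ENSMUSG00000029373, chromosome 5, 90772435 to 90773383 in GRCm38) had 11764 expected counts in pup 1, against 10749 in pup 3. These gave 579 TPM in pup 1, against 771 TPM in pup 3, a mean of 675 ± 136 TPM. Its log2 ratio was -0.41 (pup 1 over pup 3, on log2(TPM + 1)), and its count rate in pup 1 was 0.695 times that in pup 3 (exact 95% interval 0.677 to 0.713). By level Pf4 ranked 192 among all genes in pup 1 and 148 in pup 3, so it stood among the abundant transcripts of the whole organ. All counts fell on its 1 listed transcript, Pf4-201, of 586 nt. Kupffer cell and macrophage markers, relevant because some macrophages express Pf4, summed to 860.4 TPM in pup 1, against 1521 TPM in pup 3, with 7 of 12 genes detected in both libraries, the other 5 in pup 3 alone and 0 of 12 at 0 counts in both. Their sum was higher in pup 3, as Pf4 was, and so were most of the listed genes. C1qb (259 TPM in pup 1, against 225 TPM in pup 3) and Csf1r (89.8 TPM in pup 1, against 82.7 TPM in pup 3) went the other way. The part of macrophage RNA in the Pf4 level was not tested.

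Ppbp, which encodes pro-platelet basic protein, the precursor of CXCL7, lies on the same strand, 2372 bp upstream of Pf4 (chromosome 5, 90768518 to 90770063). It had 1498 expected counts in pup 1, against 8138 in pup 3. Its level was 36.6 TPM in pup 1, against 289.6 TPM in pup 3, a mean of 163 ± 179 TPM. The count rate was 0.117 times as high in pup 1 as in pup 3 (exact 95% interval 0.110 to 0.123), and the log2 ratio on TPM was -2.95. The neighbouring genes thus differed in how far the libraries spread. Pf4 stood 15.8 times as high as Ppbp in pup 1 and 2.66 times as high in pup 3. Among 14 CXC chemokine genes, 3 were detected in both libraries: Pf4, Ppbp and Cxcl12, a stromal chemokine, at 80.5 TPM in the liver of pup 1 and 58.9 TPM in that of pup 3. That was 21.4% of the list, where protein-coding genes had 14.9%. Cxcl16 was detected in pup 1 alone, at 66.7 TPM. Cxcl1, Cxcl2, Cxcl3, Cxcl5 and Cxcl15, other genes of the family, were among the 9 with no counts in either library.

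Gp9, the platelet glycoprotein IX chain that completes the von Willebrand factor receptor, was the third member found in both libraries. The gene (chromosome 6, 87778072 to 87779768) had 1825 expected counts in pup 1, against 824 in pup 3. Its level was 61.4 TPM in pup 1, against 40.4 TPM in pup 3, a mean of 50.9 ± 14.8 TPM and a log2 ratio of 0.59. Unlike both chemokines, Gp9 was higher in the pup 1 library, with a count rate 1.41 times that in pup 3 (exact 95% interval 1.29 to 1.53). Pf4 stood 9.42 times as high as Gp9 in pup 1 and 19.1 times as high in pup 3.

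The other chains of the same receptor were near or at 0. Gp1ba, the chain that carries the binding site for von Willebrand factor (chromosome 11, 70639122 to 70642036), had 0 counts in both libraries. With its length, 3 counts would be 0.0288 TPM in the liver of pup 1 and 0.0420 TPM in that of pup 3. Gp1bb, the chain that links to it through a disulfide bond (chromosome 16, 18620317 to 18622403), had 0 counts in pup 1 and 37 in pup 3, or 0.742 TPM. All 37 fell on Gp1bb-202, and Gp1bb overlaps Sept5, a septin gene on the same strand that had 0 counts in both libraries. The listed length of Gp1bb-202 was 1847 nt, against 1086 nt in the later annotation used for positions, so the Gp1bb value is uncertain. Lengths also differed for other member transcripts, among them Gp1bb-201 (645 nt listed, 2085 nt later), Gp9-201 (811 and 881 nt) and Thpo-202 (1712 and 2416 nt). TPM values and limits of those genes carry the same uncertainty. Gp5 and Gp6, which encode the GPIb-associated chain V and the collagen receptor, also had 0 counts in both libraries. Detection of the complex therefore rested on Gp9.

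The 2 chains of the integrin αIIbβ3 were split between the libraries. Itga2b, the αIIb chain also known as CD41 (chromosome 11, 102453297 to 102470122, minus strand), had 1 expected count in pup 1 and 1322 in pup 3. Its level was 0.0321 TPM in pup 1, against 55.4 TPM in pup 3. Itgb3, the β3 chain (chromosome 11, 104608000 to 104670476), showed the opposite, with 4635 expected counts in pup 1 and 0 in pup 3. Its level was 19.5 TPM in pup 1, where the count rate was at least 981-fold higher than in pup 3, setting 3 counts per library as the floor. The Itga2b count rate in pup 1 was 0.000480 times that in pup 3 (exact 95% interval 1.21e-05 to 0.00268). Neither library thus held both chains at 1 TPM. Itgav, the αv chain that also pairs with β3 outside platelets, had 2.99 TPM in the liver of pup 1 and 31.2 TPM in that of pup 3. Stem and progenitor markers, which matter because early progenitors express Itga2b and Meis1, summed to 1.70 TPM in the liver of pup 1 and 36.3 TPM in that of pup 3, with 0 of 10 detected in both and Cd34, Mecom, Procr, Ly6a and Gata2 at 0 counts in both. Myb, at 0.728 TPM in pup 1 and 30.02 TPM in pup 3, carried most of that sum, and Kit was at 0.964 TPM in pup 1, against 0.954 TPM in pup 3. The part of progenitor RNA in the Itga2b level was not tested.

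Vwf, the multimeric adhesion protein made by megakaryocytes and by endothelial cells (chromosome 6, 125546774 to 125686679), had 1 expected count in pup 1 and 1772 in pup 3. Its level was 0.0107 TPM in pup 1, against 27.5 TPM in pup 3, with a count rate in pup 1 of 0.000358 times that in pup 3 (exact 95% interval 9.06e-06 to 0.00200). The endothelial marker list ran the other way, summing to 375 TPM in the liver of pup 1 and 170.0 TPM in that of pup 3, with 4 of its 12 genes detected in both libraries and Tek, Emcn and Erg at 0 in both. Within that list Pecam1 had 2.55 TPM in pup 1, against 35.9 TPM in pup 3, and Cdh5 had 1.72 TPM in pup 1 and 18.6 in pup 3, so these 2 were higher in pup 3 like Vwf. Kdr was detected in pup 3 alone, at 1.44 TPM. Stab2, Lyve1, Clec4g, Tie1 and Eng were higher in pup 1. Egfl7, the listed gene of highest mean level, was close in both, at 89.4 TPM in pup 1 and 82.8 TPM in pup 3. The part of endothelial RNA in the Vwf and Itgb3 values was not tested. Adamts13, the protease that trims von Willebrand factor, had 0 counts in both libraries.

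**Figure D2:**
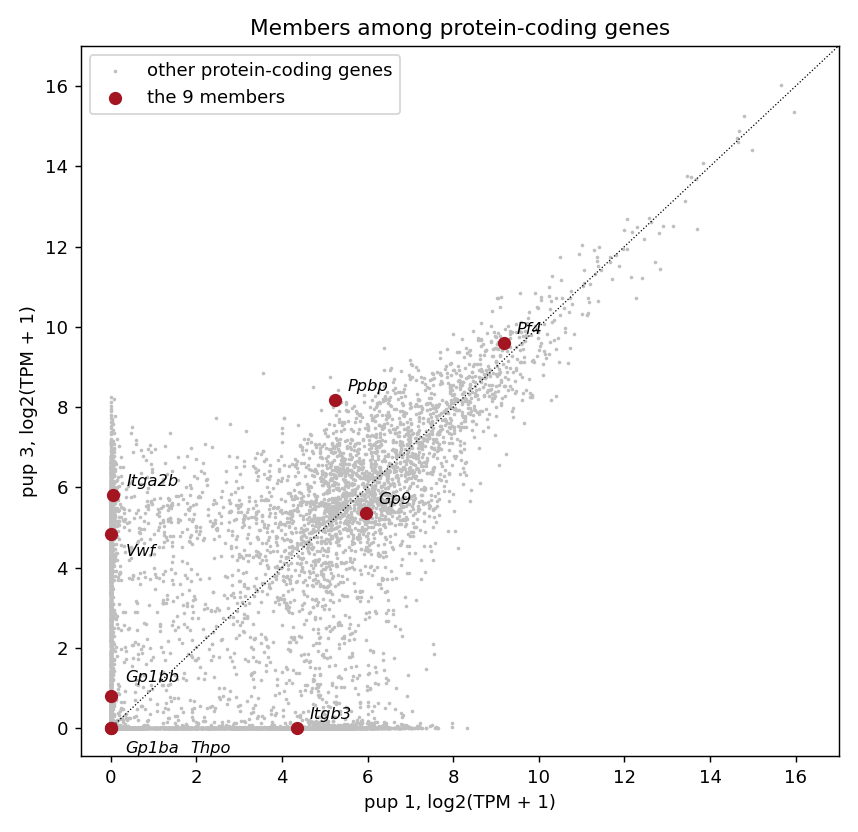
Level in pup 1 (horizontal) against pup 3 (vertical), both as log2(TPM + 1), for the 8795 protein-coding genes with a level above 0 in either library (grey), with the 9 members in red and the line of equality dotted. Pf4 and Gp9 lie near the line, Ppbp lies above it, and Itga2b, Vwf and Itgb3 lie along the axes with many other genes.

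This scatter between libraries was common at the members' levels. Among the 292 protein-coding genes with a mean of 300 to 1000 TPM, the range that holds Pf4, all were detected in both libraries. The share was 97.8% at 100 to 300 TPM, which holds Ppbp, and 75.8% at 30 to 100 TPM, which holds Gp9. It was 27.9% at 10 to 30 TPM, which holds Itga2b and Vwf, and 13.3% at 1 to 10 TPM, which holds Itgb3. The 3 members found in both were those of highest mean level. A value near 0 in 1 library also lowers that mean, so mean level and detection are not independent here. In the pup 3 library alone Itga2b, at 55.4 TPM, stood above Gp9, at 40.4 TPM. Of the 7 members with a mean of at least 10 expected counts, 4 differed by 2-fold or more between the libraries on log2(TPM + 1), where 70.0% of protein-coding genes with that many counts did. Itgb3 was the 1 higher in pup 1 (35.7% of protein-coding genes), and Ppbp, Itga2b and Vwf were the 3 higher in pup 3 (34.4%). Gp1bb, at a log2 ratio of -0.80, passed 2-fold as well with a pseudocount of 0.1 (-3.07) or on CPM (-1.05). The log2 ratio of Ppbp was -2.95, where protein-coding genes at 100 to 300 TPM had a median absolute log2 ratio of 0.77.

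The genes nearest to each doubly detected member in level, by distance in log2(TPM + 1) over the 2 libraries, were named for likeness of level only. Eif4ebp3, Gm10221 and Cnbp lay nearest to Pf4, at distances of 0.03 to 0.10, with Eif4ebp3 at 578 TPM in pup 1, against 755 TPM in pup 3. Anxa1, Rnasek and Lbp lay nearest to Ppbp, at distances of 0.15 to 0.24, and Pdcd6, Ccdc32 and Dnajc12 lay nearest to Gp9, at distances of 0.01 to 0.07.

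Which transcripts carried the counts was examined next, because the split members have several. In pup 3, 7 of the 10 listed Itga2b transcripts had counts. The full-length coding transcript Itga2b-201, of 3437 nt, took 206 expected counts, 15.5% of the gene's, and 3.88% of its TPM. Itga2b-210, a non-coding transcript of 968 nt at 11557 to 14225 bp from the 5′ end of the 16826 bp gene, took 55.5% of the counts. Itga2b-207, of 623 nt, which reaches almost to the 3′ end, took 20.5%. In total 84.5% of the counts lay on transcripts annotated as processed transcripts, and these carried 96.13% of its TPM. The 55.4 TPM of Itga2b in pup 3 included 2.15 TPM assigned to the full-length form. Itga2b-210 shares exons with Itga2b-201, so the split between them is an estimate. The gene's TPM depends on that split, since it rests on a listed gene length of 931 nt and not 3437 nt. The single count in pup 1 fell on Itga2b-210 as well.

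For Vwf, 3 of the 12 listed transcripts had counts in pup 3, and nearly all counts lay on models toward the 5′ end. Vwf-202, of 2184 nt, took 59.2% of the expected counts and Vwf-211, annotated as a retained intron form of 2613 nt, took 40.3%. Both end within the first 41.5% of the gene's 139906 bp. The full-length coding transcript Vwf-203, of 8834 nt, took 9.40 expected counts, 0.530% of the total, and 0.0424 TPM. Vwf-202 and Vwf-211 share exons with Vwf-203, so this split is an estimate as well. The gene's 27.5 TPM in pup 3 rests on a listed gene length of 2348 nt. Itga2b reads were thus assigned mainly toward the 3′ end of its gene and Vwf reads to the 5′ part of its gene. Itgb3 differed from both, since all 4635 counts in pup 1 fell on the full-length coding transcript Itgb3-201 of 5784 nt.

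**Figure D3:**
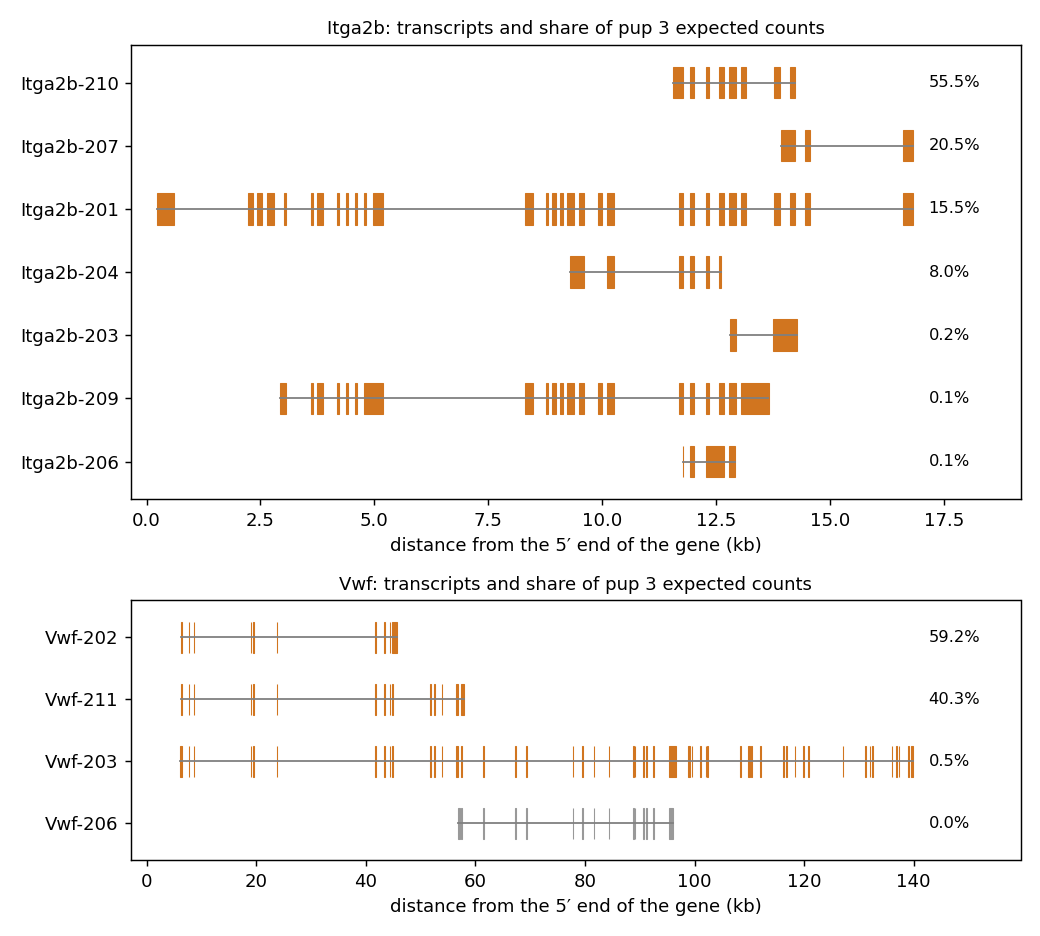
Exons (boxes) of the Itga2b and Vwf transcripts with counts, by distance in kb from the 5′ end of each gene, with each transcript's percent of the gene's expected counts in pup 3 at the right; Vwf-206 (grey) had 1 count, in pup 1. Itga2b-210 holds 55.5% and lies in the 3′ part of its gene, and Vwf-202 and Vwf-211 together hold 99.5% and end early in theirs.

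Thpo, the hormone gene (chromosome 16, 20724454 to 20734511), had 0 expected counts in both libraries. With its length, 3 counts would be 0.0463 TPM in the liver of pup 1 and 0.0675 TPM in that of pup 3. A level above these was not seen at this depth and input. Such limits cover counting error only and not loss of RNA at this input. Among protein-coding genes with a mean of 10 to 30 TPM, 27.9% were detected in both libraries. Chrd, which overlaps the 5′ end of Thpo on the opposite strand, also had 0 counts in both libraries, and Polr2h, 2187 bp away, had 20.8 TPM in pup 1, against 97.2 TPM in pup 3.

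Of the 14 genes of the thrombopoietin axis, 4 were detected in both libraries, 2 in pup 1 alone, 1 in pup 3 alone and 7 in neither. The share in both was 28.6%, where protein-coding genes had 14.9%. Asgr1 and Asgr2, chains of the hepatic receptor that takes up aged platelets, were the most abundant. Asgr1 had 432 TPM in the liver of pup 1 and 431 TPM in that of pup 3, and Asgr2 had 39.1 TPM in pup 1 and 47.5 in pup 3. The signal transducers Stat5b (17.8 TPM in pup 1, against 33.3 TPM in pup 3) and Stat3 (10.5 TPM in pup 1 and 3.32 in pup 3) were the others found in both. Stat5a had 4.74 TPM in the liver of pup 1 and 0.0318 TPM in that of pup 3. Ptpn11, a phosphatase in the same pathway, had 9.67 TPM in pup 1 and 0 counts in pup 3. Jak2, a kinase of the pathway, and its relative Tyk2 had 0 counts in both libraries.

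The wider lineage was patchy in the same way. Over 78 further genes of 5 lineage lists, 20 were detected in both libraries, 11 in pup 1 alone, 10 in pup 3 alone and 37 in neither, a share of 25.6% in both, where protein-coding genes had 14.9%. By list, members included, the share in both was 13.0% for surface receptors and 18.8% for signalling genes. It was 33.3% for transcription factors, 36.8% for granule genes and 38.5% for cytoskeleton genes. Tubb1, the β1-tubulin of platelets, stood at 39.8 TPM in each library, the smallest spread of any gene named here from the cytoskeleton list. Myh9, the non-muscle myosin heavy chain of platelets, was steady as well, at 29.0 TPM in the liver of pup 1 and 26.1 TPM in that of pup 3. Fermt3 (kindlin-3), which activates platelet integrins, had 52.7 TPM in pup 1, against 100.45 TPM in pup 3, and Tpm4, a tropomyosin, had 38.5 TPM in pup 1 and 24.3 in pup 3. In that list 5 of 13 genes were detected in both libraries, and Flna, an actin crosslinker bound to the GPIb chain, had 0 counts in pup 1 and 85.5 TPM in pup 3.

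Among 15 transcription factors, 5 were detected in both libraries, and Gata1, Gata2, Fli1 and Zfpm1 (the GATA cofactor FOG1) had 0 counts in both. Gfi1b, a repressor needed by megakaryocytes and red cells, had 50.7 TPM in the liver of pup 1 and 35.3 TPM in that of pup 3. Lyl1 had 23.9 TPM in pup 1, against 40.2 TPM in pup 3. Nfe2, a subunit of the factor that drives platelet release, had 26.4 TPM in the liver of pup 1 and 5.55 TPM in that of pup 3, and its small Maf partners were also higher in pup 1. Mafg had 40.8 TPM in pup 1, against 16.6 TPM in pup 3, and Mafk had 34.9 TPM in pup 1 and 9.08 in pup 3. Meis1 (34.1 TPM), Ldb1 (15.0 TPM) and Runx1 (1.78 TPM) were detected in pup 3 alone, and Mef2c (13.6 TPM) in pup 1 alone. Erythroid cells share several of these factors, and erythroid markers summed to 133372 TPM in the liver of pup 1 and 163669 TPM in that of pup 3, a sum carried by 4 globin genes. The list's median was 575 TPM in pup 1, against 473 TPM in pup 3, and Alas2, Slc4a1, Ermap and Klf1 were higher in pup 1, as were Gfi1b, Nfe2, Mafg and Mafk. The part of erythroid RNA in the factor levels was not tested.

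Of the 23 surface receptor genes, members included, 3 were detected in both libraries: Gp9, the tetraspanin gene Cd9 and the scavenger receptor gene Cd36. Cd9 had 398 TPM in pup 1, against 741 TPM in pup 3, and Cd36 had 26.0 TPM in pup 1 and 55.7 in pup 3. Both genes are also expressed outside the lineage. Clec1b (38.2 TPM), encoding the podoplanin receptor CLEC-2, Itga2 (12.5 TPM), the α2 chain of the collagen receptor, and P2rx1 (1.06 TPM), an ATP-gated channel, were detected in pup 1 alone, like Itgb3. Gp1ba included, 13 of the 23 had 0 counts in both libraries, among them the ADP receptor genes P2ry12 and P2ry1 and the thrombin receptor genes F2rl2 and F2rl3. Of all 21474 protein-coding genes, 8795 had a level above 0 in either library. Absence from both was thus common outside this list as well.

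Among 19 granule genes, 7 were detected in both libraries, 5 in pup 1 alone and 1 in pup 3 alone. Selp, the P-selectin stored in alpha granules and in endothelial cells, had 21.2 TPM in the liver of pup 1 and 0.148 TPM in that of pup 3. Srgn (65.8 TPM) and F13a1 (29.5 TPM), which encode the proteoglycan serglycin and the factor XIII A chain, had counts in pup 1 alone. Clu (clusterin), which hepatocytes also make, was second to Pf4 in this list with 171 TPM in pup 1, against 352 TPM in pup 3, and Vipas39, a gene of granule formation, had 33.0 TPM in pup 1 and 60.1 in pup 3. F5, which encodes coagulation factor V and is also made by hepatocytes, had 23.6 TPM in the liver of pup 1 and 21.7 TPM in that of pup 3.

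Of 16 signalling genes, 3 were detected in both libraries, 1 in pup 1 alone and 4 in pup 3 alone. Rgs18, a regulator of G protein signalling rich in platelets, had 1.33 TPM in pup 1, against 73.0 TPM in pup 3. Plek (pleckstrin) had 20.6 TPM in the liver of pup 1 and 48.4 TPM in that of pup 3. Alox12, the platelet 12-lipoxygenase, had 0.0107 TPM in pup 1, against 65.6 TPM in pup 3, and Rasgrp2, which activates Rap1 ahead of the integrin, had 0 counts in pup 1 and 58.2 TPM in pup 3. Ptgs1 (cyclooxygenase 1), the target of aspirin in platelets, went the other way, with 32.0 TPM in pup 1 and 0 counts in pup 3. The fibrinogen chains, ligands of the platelet integrin that hepatocytes make, were more abundant than any member, with Fgg at 9051 TPM in the liver of pup 1 and 5843 TPM in that of pup 3. Of the 12 ligand and partner genes 9 were detected in both libraries, with Fga, Fgb and Vtn (vitronectin) next by mean level. In pup 3 Fga, at 6221 TPM, was above Fgg.

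**Figure D4:**
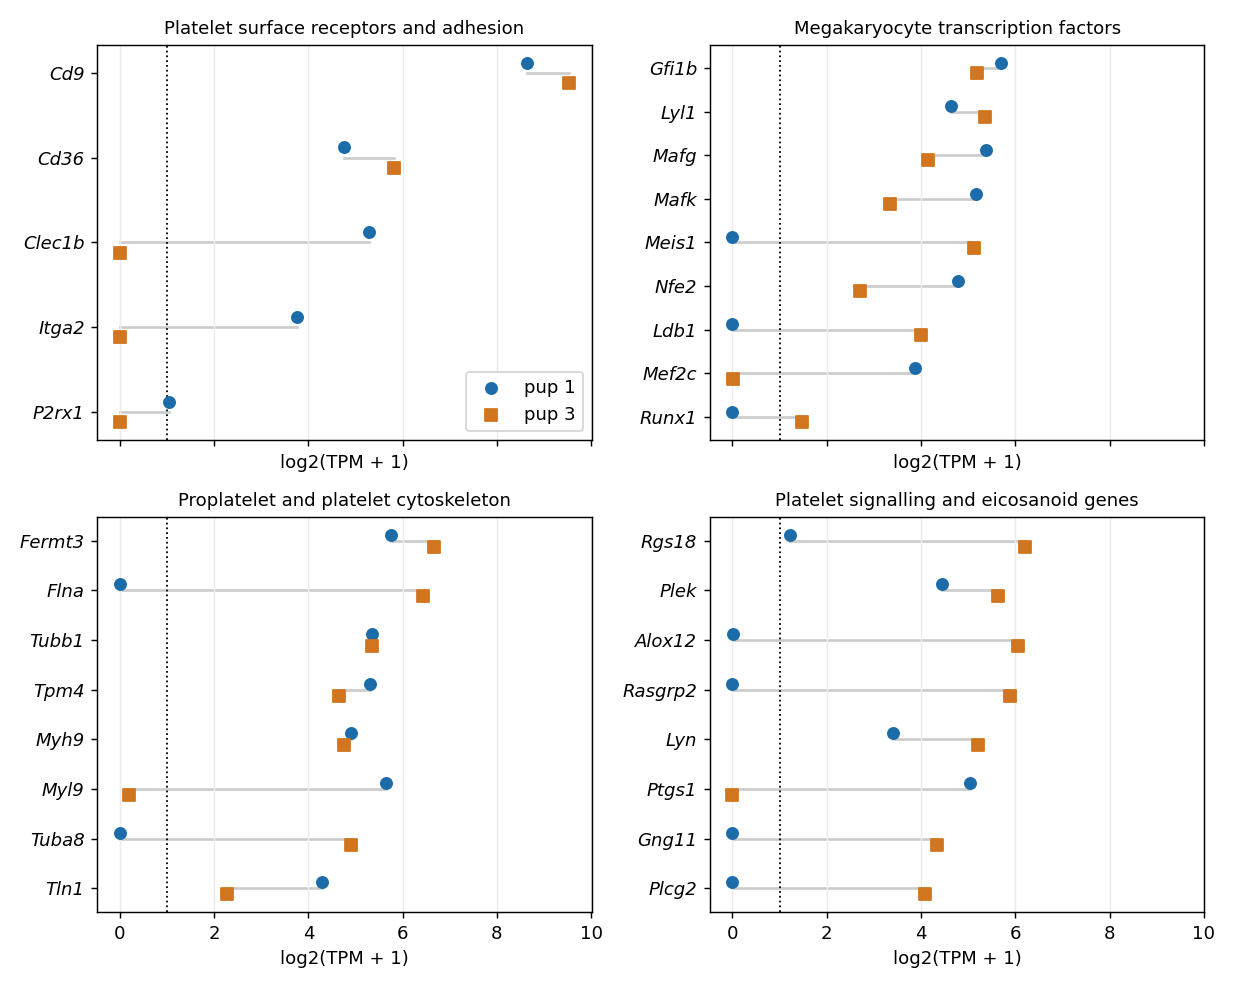
Levels as log2(TPM + 1) in pup 1 (circles) and pup 3 (squares) of genes at 1 TPM or more in either library from 4 lineage lists, members left out, with dotted lines at 1 TPM. Tubb1 and Myh9 nearly coincide, while genes such as Clec1b, Flna and Rasgrp2 sit at 0 in 1 library.

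Markers of other blood cells were measured as well. Mast cell and basophil markers summed to 46.9 TPM in pup 1, nearly all from Prss34, and 0.954 TPM in pup 3, with 0 of 9 detected in both. Neutrophil markers summed to 6918 TPM in pup 1, against 9203 TPM in pup 3, with S100a8 and S100a9 carrying the difference. Their median was 553 TPM in pup 1, against 517 TPM in pup 3, and Ngp, Ltf, Elane, Mpo and Lcn2 were higher in pup 1. Camp, at 509 TPM in pup 1, against 715 TPM in pup 3, was higher in pup 3 like S100a8 and S100a9.

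**Figure D5:**
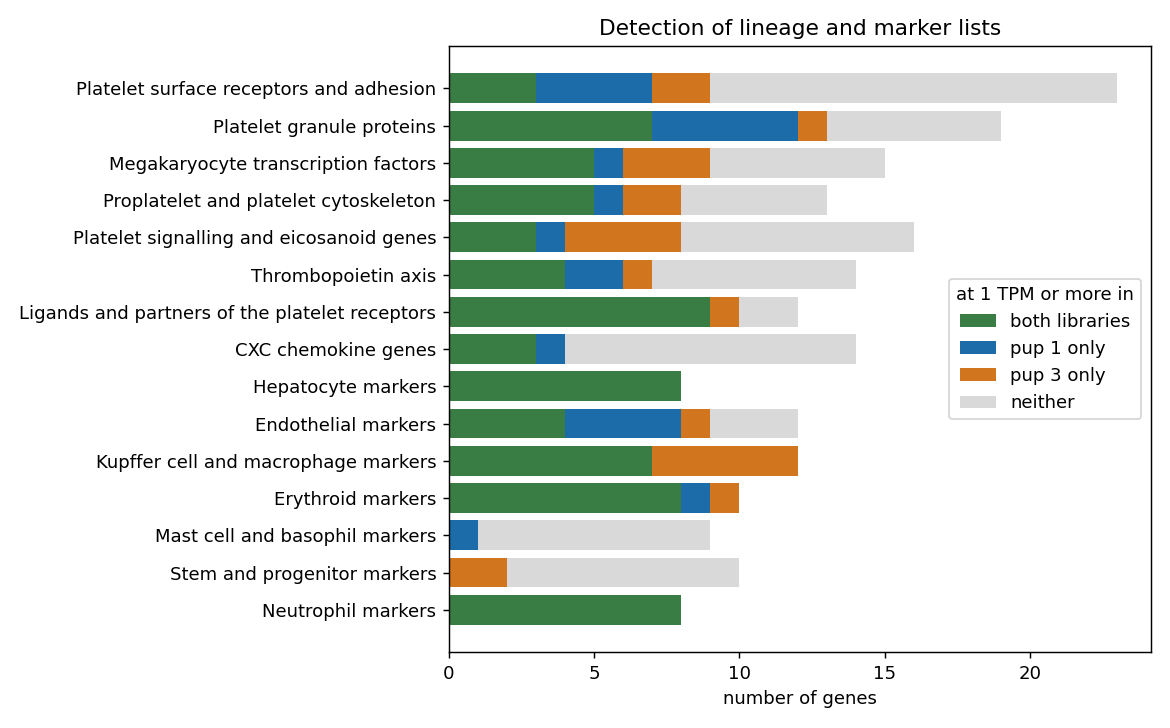
Number of genes in each lineage, ligand and marker list that reached 1 TPM in both libraries, in pup 1 alone, in pup 3 alone or in neither. Hepatocyte and neutrophil markers are detected in both throughout, while 14 of the 23 surface receptor genes are in neither library. Among all protein-coding genes, 14.9% were detected in both libraries and 17.3% in a single library.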

How the data were processed

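RNA was measured in 2 libraries of newborn mouse liver (1 group). The labels' protocols name mirVana extraction and SmartSeq library making. Per the deposited notes, values refer to mm10 with GENCODE M4 genes and a transcriptome alignment; neither the aligner nor the quantification program nor the use of strand is given in the sources used here. The authors deposited expected counts (estimated reads per gene or transcript), TPM values that include spike-ins, posterior mean TPM, treated as a score, and isoform percent.

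Spike-ins (97 features) were removed and TPM rescaled to 1000000. Identifiers, without version, were named and placed with GENCODE M21 (GRCm38), and 42462 of 43346 genes matched. All 189 symbols of 15 gene lists matched. The members and lists were chosen with earlier results of these data known. Detection meant 1 TPM; ratios used log2(TPM + 1), so differences between low values are understated; the 2-fold count used genes with a mean of at least 10 expected counts. Count rates used CPM over endogenous counts with an exact (Clopper-Pearson) interval. Each member was named, along with up to 4 leading genes per list, and receptor, factor and thrombopoietin genes at 1 TPM in either library. Genes given at 0 counts were chosen after their values were seen. So were Myh9, F13a1, Selp, Ptgs1, Pecam1, Cdh5, Tie1, Eng, Kdr, Itgav and Polr2h. The same holds for Csf1r, Alas2, Slc4a1, Ermap, Klf1, Ltf, Elane, Mpo and Lcn2. For each member detected in both libraries the 3 nearest genes in level were named. The arithmetic was tested on simulated data. edgeR TMM factors and DESeq2 size factors, on rounded expected counts, served only as alternative scalings. Protein sequences were not used here, and 1 listed gene is counted in the lists but not reported by name. Versions were edgeR 4.0.16 and DESeq2 1.42.0 in R 4.3.3, with scipy 1.17.1, pandas 2.3.3 and matplotlib 3.10.9 in Python 3.11.15.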

Additional observations from a re-analysis of the deposited data

How the results depend on the processing

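The summed level of the members (940.2 TPM) moved by less than its SD under every alternative unit or scaling. It was 883.9 TPM with spike-ins included, 926 TPM with posterior means and 1003 TPM over protein-coding genes. With TMM or DESeq2 factors it was 922 TPM, and with spike-in totals 959.8 TPM. Leaving out 1 library gave 696 or 1184 TPM. With n = 2 that step always moves the mean by less than the SD, so it is no check. The 3 members detected in both libraries stayed at 3 with limits of 0.1 TPM, 5 TPM or 10 expected counts, with posterior means and after thinning pup 1 to the depth of pup 3. Counting any expected count above 0 gave 5, since Itga2b and Vwf had 1 count each in pup 1, and either library alone gave 4 to 5. The 20 further lineage genes became 17 to 25 with other limits, and 30 to 31 in a single library. No log2 ratio of a member changed sign under another pseudocount, unit or scaling. Ratios ranged from -0.62 to -0.15 for Pf4, -3.15 to -2.69 for Ppbp, 0.39 to 0.85 for Gp9, -8.72 to -5.19 for Itga2b, 4.26 to 7.62 for Itgb3, -7.96 to -4.47 for Vwf and -3.07 to -0.75 for Gp1bb, which crossed 2-fold. Before the pseudocount, TMM factors and DESeq2 factors each shift the log2 ratio by 0.26 and spike-in totals by -0.20; low values move less. No paired analysis was possible because there is 1 group. Levels of split members depend on 1 library each, and input of 13 pg limits what either library can show.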
